A study of Mus musculus with 4 samples.

Results

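The genes described here are 10 mouse genes of amino acid uptake, serine synthesis and the stress program that governs them: Slc7a5, Slc3a2, Slc1a5, Phgdh, Psat1, Shmt2, Mthfd2, Asns, Ddit4 and Atf4. They were chosen by name, with earlier results of these data known. All 10 were found among the 31053 genes of the 4 single-cell RNA matrices. They were followed in 1537 cells descended from transferred regulatory T (Treg) cells, in 11761 conventional CD4 cells and in 11015 conventional CD8 cells, of 36140 cells kept.

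Proliferating T cells import amino acids and make serine at a high rate, because serine carbon feeds glycine and the folate-bound units used for nucleotides. Slc7a5 and Slc3a2 encode the light and heavy chains of the leucine transporter LAT1, and Slc1a5 encodes the neutral amino acid and glutamine transporter ASCT2. Phgdh and Psat1 are the first enzymes of serine synthesis, Shmt2 and Mthfd2 pass serine carbon to mitochondrial folate, and Asns makes asparagine. Atf4 is a transcription factor that drives many of these genes when amino acids run short; its protein is controlled largely at translation, which RNA counts do not measure. Ddit4 (REDD1) restrains the growth kinase complex mTORC1 and is induced by glucocorticoids, hypoxia and Atf4.

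All libraries came from a mouse model of acute graft-versus-host disease. BALB/c recipients received 900 cGy of irradiation, T-cell-depleted C57BL/6 marrow carrying CD45.1 and CD45.2, and CD45.2 Treg cells sorted as CD4+, CD25-high and Foxp3-GFP+ from Foxp3-GFP reporter mice. Wild-type CD45.1 CD4 and CD8 T cells followed on day 2, and donor T cells (H-2Kb+, TCRb+) were sorted from spleen 8 days after induction. The groups differed in the Treg donor genotype: CD226+/+ TIGIT+/+ (the wild-type library), CD226-/- TIGIT+/+ (the CD226-knockout library), CD226+/+ TIGIT-/- (the TIGIT-knockout library) and CD226-/- TIGIT-/- (the double-knockout library). CD226 and TIGIT are an activating and an inhibitory receptor that share ligands. Each genotype was 1 library from a pool of 3, so a contrast of genotypes has no replicate. The first 2 libraries were marked lane 3 and the others lane 4, so TIGIT loss and lane cannot be told apart.

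Class membership was read from protein and RNA counts in each cell. The log2 of CD45.1 over CD45.2 antibody counts was taken for each cell, and values under -0.6 were called Treg-origin. Cells above 2.2 were called conventional, and were CD4 or CD8 by which RNA was more numerous. Another 8404 conventional cells with neither RNA in the lead were left out of both classes. Treg-origin cells needed no such RNA, so only the conventional classes were selected by its detection. An alternative for the comparison with CD4 cells limited Treg-origin cells to those with more Cd4 than Cd8 UMIs. Strings of 4 values below always start with the wild-type library, then give the knockout of CD226, that of TIGIT and the double knockout. In that sequence the libraries held 367, 332, 462 and 376 Treg-origin cells. Near the Treg limit, 24 to 58 cells per library lay within 0.2 inside it and 19 to 46 within 0.2 outside. Near the conventional limit, 139 to 461 cells lay within 0.2 inside and 99 to 282 within 0.2 outside. Treg-origin and conventional cells also differed in donor and day of transfer, which cannot be told apart from cell type.

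The labels were checked against defining markers. The summed level of Foxp3, Ikzf2, Ctla4 and Il2ra was 887 to 914 CPM (unique molecular identifiers, UMIs, of a gene per 1000000 of all UMIs in a class sum) in Treg-origin cells, against 139 to 173 CPM in CD4 and 113 to 139 CPM in CD8 cells. Cd4 stood at 128 to 148 CPM in Treg-origin and 183 to 206 CPM in CD4 cells. A few Treg-origin barcodes carried RNA of other lineages, and the 5 neutrophil markers summed to 3.90 to 1795 CPM and the 5 B-cell markers to 190 to 708 CPM. Leaving out barcodes with over 1% of such UMIs, at most 2 per class and library, kept all 7 calls of the 10 genes between Treg-origin and CD4 cells. Median UMIs per cell were 3922 to 5372 in Treg-origin, 7040 to 9013 in CD4 and 8887 to 11901 in CD8 cells. An Mki67 UMI, which marks cycling cells, was found in 29.8% to 36.4%, 61.8% to 67.1% and 77.1% to 83.3% of the cells of these classes. After thinning every cell to 2000 UMIs the shares were 18.4% to 24.9%, 38.1% to 43.5% and 46.3% to 51.0%. Between 16 and 27 cell barcodes were shared by each pair of libraries.

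Promoters of 8 of the 10 genes were searched for 4 short motifs on both strands, in the RefSeq windows (GRCm38.p6) from 250 bases before to 50 after each start. Slc7a5 and Slc1a5 had no window and were not searched. The amino acid response element TGATGNAA, to which Atf4 binds with a partner, was in 3.97% of 32851 windows and, among the 8 genes searched, in Asns. The hypoxia response core ACGTG was in 19.6% of windows and in Asns, Ddit4, Psat1 and Slc3a2. CACGTG, an E-box that contains ACGTG, was in 7.15% of windows and in none of the 8 genes searched. CCAAT was in 37.4% and in Atf4, Ddit4, Mthfd2, Phgdh and Psat1. A match says only that the letters are there. The 250 bases before the RefSeq start are printed for Asns, which holds the single TGATGNAA match, and for Ddit4, the one gene of the 10 called higher in Treg-origin cells. Both genes lie on the minus strand, and capitals mark TGATGNAA in Asns (chr6:7693210-7693459) and ACGTG in Ddit4 (chr10:59951771-59952020).
Asns: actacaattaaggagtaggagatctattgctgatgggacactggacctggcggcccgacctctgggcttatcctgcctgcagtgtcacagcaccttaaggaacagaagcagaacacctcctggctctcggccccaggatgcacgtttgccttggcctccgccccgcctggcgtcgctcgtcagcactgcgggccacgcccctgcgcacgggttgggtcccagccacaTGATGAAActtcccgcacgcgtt
Ddit4: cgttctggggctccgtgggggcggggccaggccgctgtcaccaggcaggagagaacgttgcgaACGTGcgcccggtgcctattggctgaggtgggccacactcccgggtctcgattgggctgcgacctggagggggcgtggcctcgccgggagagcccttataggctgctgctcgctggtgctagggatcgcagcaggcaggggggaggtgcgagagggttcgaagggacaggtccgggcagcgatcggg

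Between cell classes the question was how far Treg-origin cells run the amino acid program of the conventional cells around them. Over all cells of a class, mean levels of the LAT1 light chain, serine enzymes and Asns were lowest in Treg-origin cells. Ddit4 was highest there. Fewer of the lower calls held among cells with, or among cells without, an Mki67 UMI (dividing and non-dividing cells). In Treg-origin against CD4 cells, 1 of the 10 genes was higher and 6 were lower by edgeR's quasi-likelihood test with Benjamini-Hochberg adjustment (library as block, n = 4, adjusted p of at most 0.05), where 21.5% of all 10772 genes tested were higher and 20.5% lower. In non-dividing cells alone 2 were higher and 3 lower, beside 1471 and 1403 of all 9285 genes tested. In dividing cells alone 1 was higher and 2 lower, beside 1162 and 1014 of 10260. Against CD8 cells, 1 was higher and 7 were lower, with a background of 26.1% and 26.3%. In non-dividing cells 2 of 9 tested were then higher and 4 lower, beside 1908 and 1976 of 8302 genes. In dividing cells 1 was higher and 5 lower, beside 1577 and 1572 of 10709. In CD8 against CD4 cells, 6 were higher and 2 lower, with a background of 22.9% and 23.7%. The 4 libraries serve as the replicates of a class although their Treg donors differed in genotype, so the p-values measure the spread between these libraries. The comparisons share class sums and are given side by side. Because each transcript is counted once at its 3′ end, CPM levels are set side by side between genes without scaling for length.

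**Figure D1:**
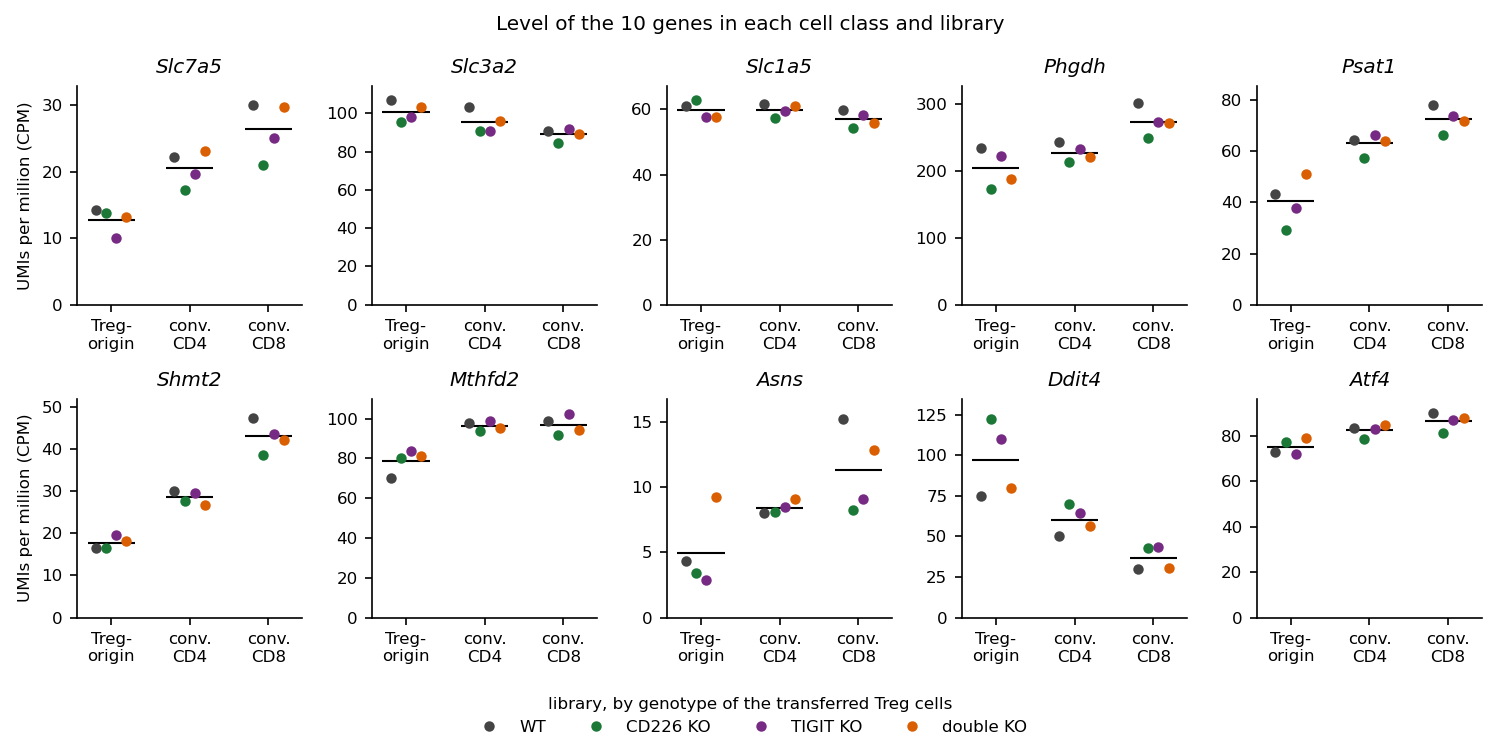
Level of each of the 10 genes (vertical axes, CPM, each starting at 0) in Treg-origin, conventional CD4 and conventional CD8 cells. Each point is 1 library, coloured by the genotype of the transferred Treg cells, and the line is the mean of 4. Slc7a5, Psat1 and Shmt2 rise from left to right, Ddit4 falls, and Slc3a2, Slc1a5 and Atf4 stay close to level.

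Slc7a5 was measured at 14.3, 13.7, 10.0 and 13.2 CPM in Treg-origin cells. In CD4 cells it was at 22.2, 17.3, 19.6 and 23.2 CPM, and in CD8 cells at 30.0, 21.1, 25.1 and 29.7 CPM. All Treg-origin values lay below all CD4 and CD8 values, while the CD4 and CD8 ranges overlapped. The log2 fold change of Slc7a5 was -0.70 ± 0.13 (SE, n = 4, edgeR adjusted p = 0.000970) against CD4 and -1.10 ± 0.12 (adjusted p = 2.84e-06) against CD8 cells. CD8 exceeded CD4 cells by 0.37 ± 0.04 (edgeR adjusted p = 2.10e-05), higher in 4 of 4 libraries. The Treg-origin values of Slc7a5 rest on 21 to 33 UMIs per library, of which the 5 richest cells held 21.2% to 54.2%. The difference from CD4 cells was no longer called when cells were thinned to 2000 UMIs (-0.57, adjusted p = 0.104) or in non-dividing cells alone (-0.44, adjusted p = 0.186). In non-dividing cells the CD8 to CD4 difference of Slc7a5 was not called either (0.19, adjusted p = 0.239).

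The partner chain did not follow. Slc3a2 was at 107, 95.6, 97.9 and 103 CPM in Treg-origin cells, at 103, 90.8, 90.8 and 96.1 CPM in CD4 and at 90.9, 84.6, 91.6 and 89.1 CPM in CD8 cells. The classes overlapped, and within every library the Treg-origin value was the highest. The log2 fold change of Slc3a2 was 0.07 ± 0.06 against CD4 (edgeR adjusted p = 0.359) and 0.14 ± 0.06 against CD8 cells (adjusted p = 0.0627), neither past the threshold. Its CD8 level differed from CD4 by -0.08 ± 0.03 (log2, edgeR adjusted p = 0.0400). Of 14 alternatives, 6 kept this call. Among others, it was lost without the wild-type (-0.05), the CD226-knockout or the double-knockout library (-0.09 in each). Slc3a2 was the more abundant chain in every class, with mean levels of 101, 95.3 and 89.1 CPM in Treg-origin, CD4 and CD8 cells beside 12.8, 20.6 and 26.5 CPM for Slc7a5. In non-dividing cells alone, Slc3a2 was called higher in Treg-origin cells, by 0.21 against CD4 (adjusted p = 0.0359) and 0.36 against CD8 cells (adjusted p = 0.00104).

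The glutamine transporter gene Slc1a5 was at 61.2, 62.9, 57.8 and 57.6 CPM in Treg-origin, 61.6, 57.3, 59.5 and 61.1 CPM in CD4 and 59.9, 54.2, 58.4 and 55.8 CPM in CD8 cells. The ranges overlapped throughout, and the log2 fold change of Slc1a5 was -0.01 ± 0.06 for Treg-origin against CD4 cells (edgeR adjusted p = 0.883).

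Phgdh, which commits a glycolytic intermediate to serine, was the most abundant of the 10 genes. It was at 233, 172, 222 and 187 CPM in Treg-origin cells, at 242, 213, 232 and 221 CPM in CD4 and at 301, 248, 272 and 270 CPM in CD8 cells. Treg-origin and CD4 values overlapped, and CD8 values lay above both. The log2 fold change of Phgdh in Treg-origin cells was -0.17 ± 0.06 against CD4 (edgeR adjusted p = 0.0317) and -0.46 ± 0.05 against CD8 cells (adjusted p = 4.41e-06). The call against CD8 cells was lost in dividing cells alone (-0.10, adjusted p = 0.263). Of 15 alternatives, 8 kept the call against CD4 cells. Among others, it was lost without the CD226-knockout (-0.13) or the double-knockout library (-0.15) and in non-dividing cells alone (-0.03). With Treg-origin cells limited to those with more Cd4 than Cd8 UMIs it was lost too (-0.05). The CD4 comparison turned to 0.09 (adjusted p = 0.356) in dividing cells alone.

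Psat1, the aminotransferase of the second step, was at 43.4, 29.2, 37.7 and 51.2 CPM in Treg-origin cells. It was at 64.2, 57.5, 66.3 and 64.1 CPM in CD4 and at 78.2, 66.2, 73.6 and 72.0 CPM in CD8 cells. The Treg-origin range lay below both others, and its spread (SD 9.30 CPM, n = 4) was wider than that in CD4 (3.84 CPM) and CD8 cells (4.96 CPM). In log2 fold change, Psat1 in Treg-origin cells was -0.65 ± 0.09 against CD4 (edgeR adjusted p = 7.05e-05) and -0.88 ± 0.09 against CD8 cells (adjusted p = 1.504e-06). In dividing cells alone the difference from CD4 was -0.23 (adjusted p = 0.126).

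Shmt2, the mitochondrial enzyme that splits serine into glycine and a folate-bound unit, was at 16.5, 16.6, 19.6 and 18.1 CPM in Treg-origin cells, at 30.1, 27.7, 29.6 and 26.7 CPM in CD4 and at 47.4, 38.6, 43.6 and 42.2 CPM in CD8 cells. No class overlapped another. Fitted as log2 fold change, Shmt2 in Treg-origin cells was -0.70 ± 0.10 against CD4 (edgeR adjusted p = 8.57e-05) and -1.32 ± 0.10 against CD8 cells (adjusted p = 3.26e-08), and it was 0.60 ± 0.04 in CD8 against CD4 cells (adjusted p = 1.46e-07). Its Treg-origin calls against both classes were kept in non-dividing cells alone and in dividing cells alone.

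Mthfd2, the mitochondrial dehydrogenase and cyclohydrolase of the folate cycle, was at 70.3, 80.1, 83.6 and 81.0 CPM in Treg-origin cells. It was at 97.6, 93.9, 98.5 and 95.1 CPM in CD4 and at 98.6, 91.9, 102 and 94.4 CPM in CD8 cells. The conventional classes overlapped, and Treg-origin values lay below both. Against CD4 cells the log2 fold change of Mthfd2 was -0.31 ± 0.07 (edgeR adjusted p = 0.00221). In dividing cells alone it was -0.11 (adjusted p = 0.494) and in non-dividing cells alone -0.21 (adjusted p = 0.114). A lower call of Mthfd2 against CD8 cells was likewise lost in dividing (-0.08, edgeR adjusted p = 0.606) and in non-dividing cells alone (-0.19, adjusted p = 0.145). The CD8 to CD4 difference was 0.02 ± 0.02 (adjusted p = 0.582).

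Asns was the rarest of the 10 genes. Treg-origin cells gave only 10, 6, 6 and 19 Asns UMIs, or 4.34, 3.43, 2.87 and 9.27 CPM, and 42.1% to 100% of those UMIs came from 5 cells. CD4 cells were at 8.03, 8.06, 8.50 and 9.08 CPM and CD8 cells at 15.2, 8.23, 9.07 and 12.8 CPM. The double-knockout Treg-origin value stood above all CD4 values, and the other 3 lay below them. The log2 fold change of Asns was -0.78 ± 0.255 against CD4 (edgeR adjusted p = 0.0251, lower in 3 of 4 libraries), and the call was lost without the wild-type (-0.76), the CD226-knockout (-0.67) or the TIGIT-knockout library (-0.59). It was also lost in dividing cells alone (-0.36, adjusted p = 0.460) and with Treg-origin cells limited to those with more Cd4 than Cd8 UMIs (-0.61, adjusted p = 0.148). Against CD8 cells Asns was at -1.24 ± 0.23 (adjusted p = 0.000313, lower in 4 of 4). CD8 exceeded CD4 cells by 0.42 ± 0.12 (edgeR adjusted p = 0.0126), and 9 of 14 alternatives kept that call. Among others, it was lost without the wild-type (0.24) or the double-knockout library (0.38) and in non-dividing cells alone (0.24, adjusted p = 0.372).

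Ddit4 was higher in Treg-origin cells. It was at 74.6, 122, 110 and 80.0 CPM in Treg-origin cells, at 49.99, 70.0, 64.1 and 56.2 CPM in CD4 and at 29.9, 42.9, 43.2 and 30.2 CPM in CD8 cells. No class overlapped another, and in every library the order was Treg-origin, CD4, CD8. Ddit4's log2 fold change in Treg-origin cells was 0.66 ± 0.065 against CD4 (edgeR adjusted p = 3.22e-06) and 1.36 ± 0.06 against CD8 cells (adjusted p = 2.21e-10), or 1.58-fold and 2.56-fold. In CD8 against CD4 cells it was -0.71 ± 0.04 (adjusted p = 1.14e-07). All 3 calls held under every alternative run for Ddit4 in these comparisons, those within non-dividing and within dividing cells included.

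Atf4 transcripts differed little between classes. They were at 72.9, 77.3, 72.1 and 79.1 CPM in Treg-origin, 83.5, 78.6, 83.1 and 84.7 CPM in CD4 and 90.02, 81.2, 87.1 and 87.7 CPM in CD8 cells. Treg-origin and CD4 values overlapped. Its log2 fold change was -0.14 ± 0.06 for Treg-origin against CD4 cells (edgeR adjusted p = 0.0826), -0.24 ± 0.07 against CD8 cells (adjusted p = 0.00688) and 0.08 ± 0.02 for CD8 against CD4 cells (adjusted p = 0.0179). In non-dividing cells alone the CD8 comparison with Treg-origin cells was not called (-0.17). Of 14 alternatives, 8 kept the call between CD8 and CD4 cells. Among others, it was lost without the wild-type (0.07) or the double-knockout library (0.08).

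Other genes of the same pathways were read from 6 lists. Values in parentheses for them are log2 fold changes of genes past the edgeR threshold or list medians. Genes were named, and are said to lead, only among called genes averaging 20 CPM or more. Over all genes tested, 21.5% were higher and 20.5% lower in Treg-origin than in CD4 cells. The shares were 26.1% and 26.3% against CD8 cells, and 22.9% and 23.7% in CD8 against CD4 cells. The 20 cytosolic aminoacyl-tRNA synthetases, which load tRNAs for translation, were mostly lower in Treg-origin cells: 14 were lower and 1 higher than in CD4 cells, with a median log2 fold change of -0.36 beside 0.01 over all genes. Farsb (-0.74), Tars (-0.71) and Mars (-0.63) led, and Wars (0.29), an interferon-induced synthetase, was the exception. Against CD8 cells 18 were lower and none higher, and in CD8 against CD4 cells 17 were higher and none lower, led by Gars (0.29). The 22 serine, glycine and folate enzymes had 19 tested, of which 10 were lower and 2 higher in Treg-origin than in CD4 cells (median -0.44). Among them Mthfd1 (-0.94), Gcsh of the glycine cleavage system (-0.85) and the purine enzyme Gart (-0.69) were lower, and Mthfs (0.49) was higher. Of the 16 amino acid transporters, 12 were tested, and 3 were higher and 3 lower than in CD4 cells, near the shares over all genes. They included Slc38a9 (0.48), a lysosomal arginine sensor, and the glutamine carrier Slc38a1 (-0.31).

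Counts differed between the stress and mTORC1 lists. Of 28 Atf4 targets and integrated stress response genes, 21 were tested in Treg-origin against CD4 cells, with 9 higher and 1 lower (median 0.18). The translation repressor Eif4ebp1 (1.07), the interferon-induced kinase Eif2ak2 (1.04) and the transcription factor Cebpb (0.76) led those that were higher, and Eif2s1, the eIF2 alpha subunit, was lower (-0.51). Of the 16 glucocorticoid and hypoxia induced genes, 13 were tested, with 6 higher and 1 lower against CD4 cells (median 0.47) and 8 higher and none lower against CD8 cells (median 0.71). Tsc22d3, which encodes the glucocorticoid-induced protein GILZ, was at a mean of 88.8 CPM in Treg-origin and 35.5 CPM in CD4 cells (1.28), Txnip at 148 and 74.9 CPM (0.97), and Bnip3l at 115 and 80.3 CPM (0.50). Fkbp5, also glucocorticoid-induced, was lower (-0.26). Of 20 mTORC1 regulators, 16 were tested, with 1 higher, Sesn3 (0.31), and 3 lower, among them Mtor (-0.32) and its substrate Rps6kb1 (-0.39). For this list the lower count lay near the 20.5% of all genes, and the list median was 0.03. The share of Mki67+ cells differed between the same classes, and its part in these list counts was not tested.

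**Figure D2:**
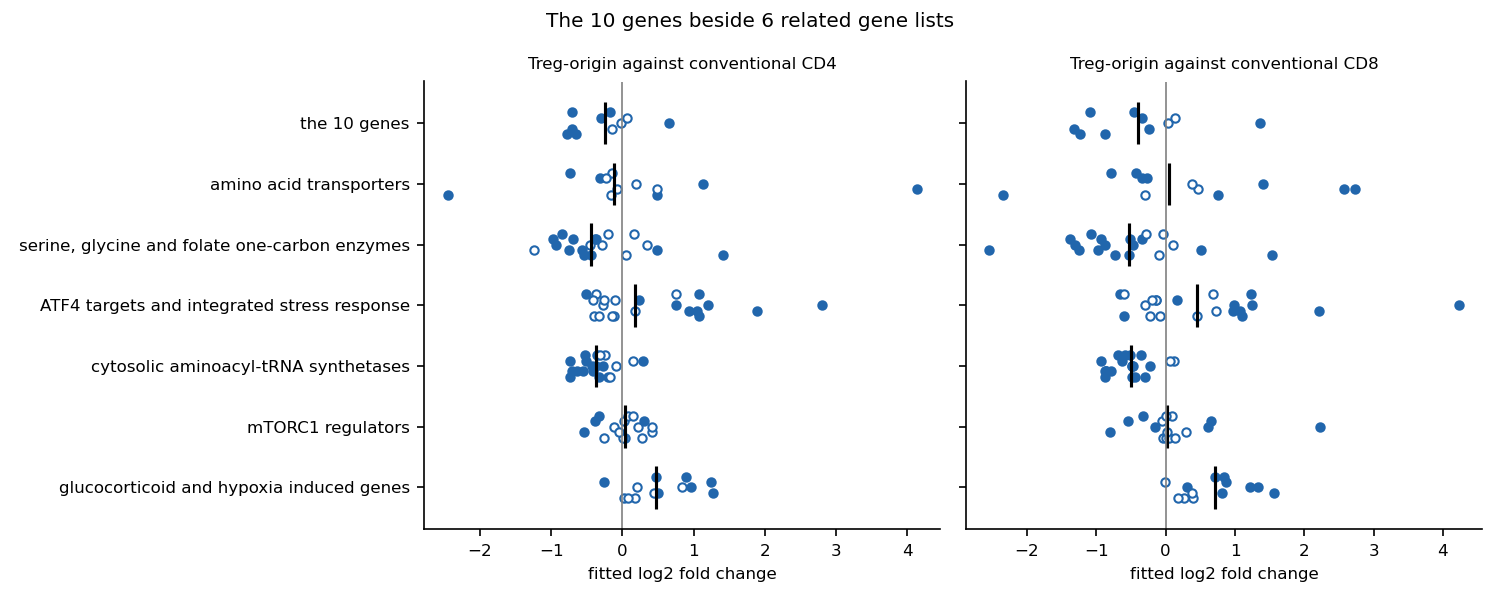
Fitted log2 fold change (horizontal axes) of each tested gene of the 10 and of 6 related lists, in Treg-origin cells against CD4 cells (left) and CD8 cells (right). Filled points passed the edgeR threshold, open points did not, and black bars are list medians; the points farthest out are genes under 20 CPM. The synthetases and serine enzymes lie mostly left of 0, and the glucocorticoid and hypoxia induced genes mostly right.

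Cells in cycle were compared with cells out of cycle within each class, taking a cell with any Mki67 UMI as dividing. Serine enzymes were higher in dividing cells of all classes, and Ddit4 was lower in dividing conventional cells. In Treg-origin cells 4 of 9 tested genes were higher and none lower, where 16.8% of all genes were higher and 14.4% lower. In CD4 cells 7 of 10 were higher and 2 lower, with a background of 29.5% and 28.6%. In CD8 cells 6 of 10 were higher and 1 lower, with a background of 20.6% and 20.1%. Depth moved with the split, since dividing cells had median UMIs of 6037 to 9172 in Treg-origin, 8776 to 11106 in CD4 and 10018 to 13156 in CD8 cells, and non-dividing cells 3395 to 4530, 4921 to 6162 and 5488 to 7315. Each result was also computed in cells of 5000 to 10000 UMIs and after thinning. When cells were thinned to 2000 UMIs and called dividing anew from the thinned Mki67 count, none of the 7 genes called in CD8 cells passed. When they kept their full Mki67 call and were then thinned, an alternative chosen after seeing the data, 6 of the 7 passed and Asns did not (0.08).

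**Figure D3:**
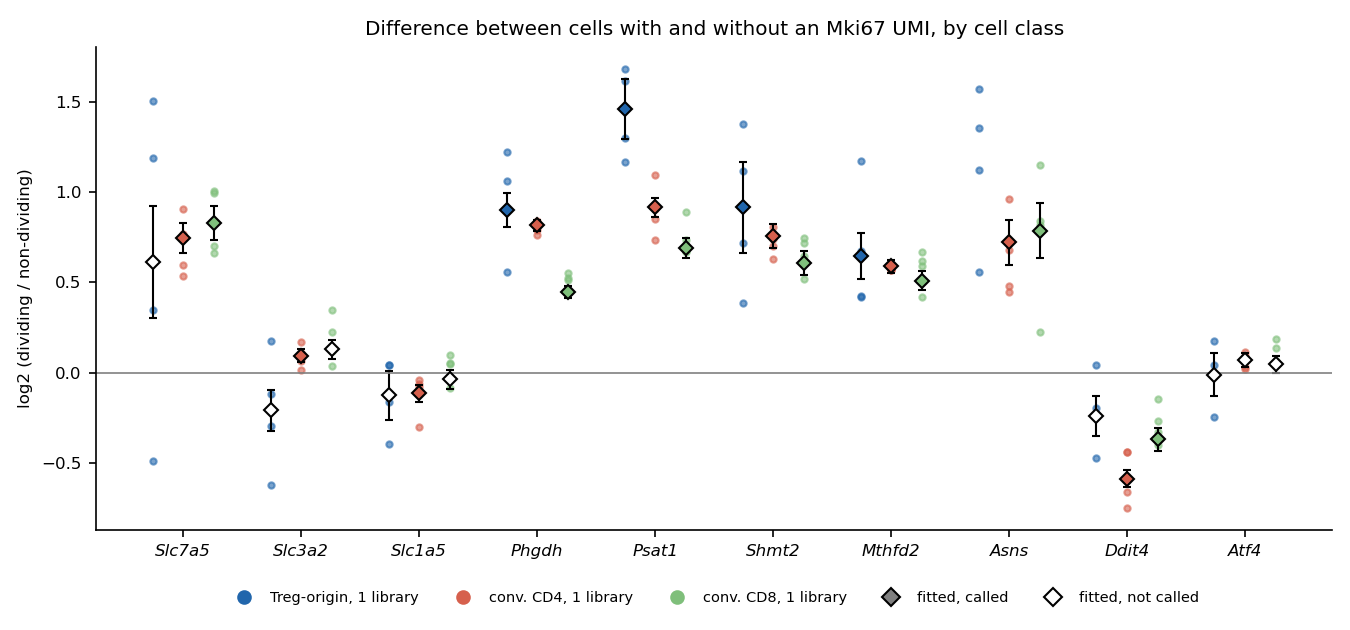
Log2 ratio of the level in dividing to that in non-dividing cells (vertical axis) for the 10 genes in Treg-origin, CD4 and CD8 cells. Small points are single libraries, and diamonds are edgeR fits with their standard errors, filled where called. Psat1 in Treg-origin cells has the highest fit, at 1.46, and Ddit4 in CD4 cells the lowest, at -0.59; Asns had no fit in Treg-origin cells.

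Psat1 was at 61.2, 45.11, 57.5 and 79.3 CPM in dividing and 26.8, 17.7, 18.1 and 24.04 CPM in non-dividing Treg-origin cells. The ranges did not overlap, and the log2 difference of Psat1 was 1.46 ± 0.17 (edgeR adjusted p = 2.58e-08). It was 0.92 ± 0.05 in CD4 cells (means 70.9 and 37.8 CPM) and 0.69 ± 0.06 in CD8 cells (means 76.1 and 45.3 CPM). Among Treg-origin cells of 5000 to 10000 UMIs, Psat1 was still called, Phgdh and Mthfd2 were not, and Shmt2 was too sparse to be tested. The Treg-origin difference exceeded that in CD4 cells by 0.57 ± 0.17, which did not pass (edgeR adjusted p = 0.0798). Over 9 alternatives it ran from 0.28 to 0.66, and 2 passed. They were no filter on low counts (0.60, adjusted p = 0.0445) and dividing cells with at least 2 Mki67 UMIs (0.66, adjusted p = 0.0309). Neither thinned setting passed.

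Phgdh was at 280, 258, 301 and 246 CPM in dividing and 190, 110, 144 and 131 CPM in non-dividing Treg-origin cells. The groups did not overlap, and the log2 difference of Phgdh was 0.90 ± 0.09 (edgeR adjusted p = 5.03e-09), beside 0.82 ± 0.03 in CD4 and 0.45 ± 0.03 in CD8 cells. In Treg-origin cells of 5000 to 10000 UMIs it was 0.24 (adjusted p = 0.223). Dividing Treg-origin cells reached a mean of 271 CPM of Phgdh, against 252 CPM in dividing CD4 cells, and non-dividing cells of both classes had a mean of 144 CPM.

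Shmt2 was at 18.9, 24.6, 28.7 and 22.8 CPM in dividing and 14.2, 10.8, 10.5 and 13.5 CPM in non-dividing Treg-origin cells, with no overlap. The log2 difference of Shmt2 was 0.91 ± 0.25 (edgeR adjusted p = 0.00549), beside 0.76 ± 0.07 in CD4 and 0.61 ± 0.07 in CD8 cells; the Treg-origin call was lost without the TIGIT-knockout library (0.74), and the CD8 call in cells of 5000 to 10000 UMIs (0.21, adjusted p = 0.120). Mthfd2 was at 87.4, 119, 95.8 and 93.1 CPM against 54.4, 52.2, 71.4 and 69.2 CPM in the same groups, again with no overlap. Its difference was 0.65 ± 0.13 in Treg-origin (adjusted p = 0.000182), 0.59 ± 0.04 in CD4 and 0.51 ± 0.05 in CD8 cells. At 5000 to 10000 UMIs the Treg-origin value of Mthfd2 was 0.22 (adjusted p = 0.501).

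Slc7a5 was at 23.8, 19.1, 21.7 and 26.4 CPM in dividing and 16.1, 12.3, 12.4 and 13.6 CPM in non-dividing CD4 cells, which did not overlap. The log2 difference of Slc7a5 was 0.75 ± 0.085 in CD4 (edgeR adjusted p = 8.21e-08) and 0.83 ± 0.09 in CD8 cells (adjusted p = 2.31e-07). In Treg-origin cells it was at 16.2, 10.9, 15.3 and 18.8 CPM in dividing and 12.5, 15.7, 4.76 and 7.69 CPM in non-dividing cells, which overlapped, and the difference of 0.61 ± 0.31 did not pass (adjusted p = 0.143). The CD226-knockout library had the opposite direction, and without it the difference was 0.95 (adjusted p = 0.0424).

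Slc3a2 and Slc1a5 hardly moved with division. In CD4 cells Slc3a2 was higher by 0.10 ± 0.04 (log2, edgeR adjusted p = 0.0298) and Slc1a5 lower, at -0.11 ± 0.05 (adjusted p = 0.0420). Of 15 alternatives, 6 kept the Slc3a2 call and 5 the Slc1a5 call. Among others, each call was lost without the wild-type, the TIGIT-knockout or the double-knockout library. There Slc3a2 stood at 0.10, 0.09 and 0.07 and Slc1a5 at -0.13, -0.05 and -0.13. In CD8 cells their differences were 0.13 ± 0.05 (adjusted p = 0.0519) and -0.04 ± 0.05 (adjusted p = 0.628). Without the wild-type library Slc3a2 passed in CD8 cells (0.17, adjusted p = 0.0200). In Treg-origin cells Slc3a2 was at -0.21 ± 0.11 (adjusted p = 0.171), which passed without the double-knockout library (-0.33, adjusted p = 0.0472).

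Asns could not be tested in Treg-origin cells, where dividing cells held 6, 4, 5 and 14 UMIs and non-dividing cells 4, 2, 1 and 5. In CD4 cells Asns was at 8.56, 8.76, 9.67 and 10.1 CPM in dividing and 6.02, 5.99, 4.47 and 5.94 CPM in non-dividing cells, with no overlap and a log2 difference of 0.72 ± 0.12 (edgeR adjusted p = 2.54e-05). In CD8 cells it was 0.79 ± 0.15 (adjusted p = 0.000236). Depth moved with both: in cells of 5000 to 10000 UMIs the Asns difference was 0.25 in CD4 (adjusted p = 0.328) and 0.01 in CD8 cells (adjusted p = 0.981).

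Ddit4 was at 46.4, 60.9, 55.5 and 51.6 CPM in dividing and 63.3, 96.8, 93.7 and 70.2 CPM in non-dividing CD4 cells. No ranges overlapped there, and the log2 difference of Ddit4 was -0.59 ± 0.05 (edgeR adjusted p = 4.33e-10). In CD8 cells it was at 29.6, 41.7, 42.0 and 29.1 CPM in dividing and 32.9, 50.3, 52.9 and 38.7 CPM in non-dividing cells. The CD8 ranges overlapped, yet Ddit4 was lower in dividing cells of 4 of 4 libraries, at -0.37 ± 0.06 (adjusted p = 6.61e-05). In Treg-origin cells it was at 69.3, 99.8, 101 and 81.3 CPM in dividing and 79.5, 139, 119 and 78.8 CPM in non-dividing cells, lower in 3 of 4, and the difference of -0.24 ± 0.11 did not pass (adjusted p = 0.0951). With at least 2 Mki67 UMIs as the mark of division it passed (-0.34, adjusted p = 0.0386).

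Atf4 was not called in any class, with log2 differences of -0.01 ± 0.12 in Treg-origin (edgeR adjusted p = 0.965), 0.07 ± 0.04 in CD4 (adjusted p = 0.107) and 0.05 ± 0.05 in CD8 cells (adjusted p = 0.472). In CD4 cells Atf4 passed in 1 of 15 alternatives, that with no low-count filter (0.11, edgeR adjusted p = 0.0225). As a share of all UMIs Atf4 thus differed little. Per cell its mean was 0.572 UMIs in dividing and 0.321 in non-dividing Treg-origin cells, 0.927 and 0.488 in CD4 and 1.15 and 0.568 in CD8 cells. Dividing cells gave more UMIs of every kind, so per-cell counts rose for all 10 genes, Ddit4 included (0.594 against 0.490 in CD4 cells).

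Whether the dividing difference itself differed between classes was tested over the 24 sums of class, division and library. Between Treg-origin and CD4 cells none of the 10 genes passed edgeR's adjusted threshold, where 2.09% of all genes did in either direction. In simulated data this comparison recovered only 32% of genes altered 1.5-fold and 60% of those altered 2-fold, so real differences could be missed. At an unadjusted p under 0.05 there were 3 of 10, Psat1, Ddit4 and Slc3a2, where 12.6% of all genes had such a p. Between CD8 and CD4 cells 1 of 10 passed, with a background of 9.49%. It was Phgdh, whose difference was smaller in CD8 cells, at -0.34 ± 0.06 on the log2 scale (edgeR adjusted p = 5.95e-05), and the call was kept without any 1 library. Ddit4 was at 0.24 ± 0.08 (adjusted p = 0.0668) and passed without the double-knockout library (0.32, adjusted p = 0.0378).

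Within the dividing cells, levels were also read by the amount of Mki67, and they rose over its steps for some genes and not for others. Psat1 in CD4 cells had means of 52.6, 64.4 and 77.3 CPM at 1 UMI, 2 to 4 UMIs and 5 or more UMIs of Mki67. Psat1 in CD8 cells had means of 59.4, 74.0 and 79.5 CPM over the same steps, and Slc7a5 in CD8 cells 22.8, 26.0 and 29.5 CPM. In CD4 cells Ddit4 was uneven, at 62.5, 48.0 and 54.0 CPM, Atf4 stood at 83.6, 87.0 and 81.8 CPM, and Mthfd2 was level over the last steps, at 107 and 107 CPM. In Treg-origin cells the steps were uneven, with Psat1 at 42.2, 70.3 and 64.0 CPM and Ddit4 at 105, 57.5 and 101 CPM, each from 29 to 59 cells per library. These steps were not tested, and depth was not matched between them.

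The pathway lists gave similar splits. Over all genes tested, the shares higher and lower in dividing cells were 16.8% and 14.4% in Treg-origin cells. They were 29.5% and 28.6% in CD4 and 20.6% and 20.1% in CD8 cells. Synthetases were higher in dividing cells in 7 of 20 cases in Treg-origin, 17 of 20 in CD4 and 13 of 20 in CD8 cells, with none lower, and Vars led in Treg-origin (0.75) and CD4 cells (0.67). Of the serine, glycine and folate enzymes 7 of 15 tested were higher and 1 lower in Treg-origin cells, 10 of 19 and 1 in CD4, and 9 of 19 and 1 in CD8 cells. Among them in Treg-origin cells were Tyms (2.14), a nucleotide enzyme known for expression in S phase, and the sideroflexin Sfxn1 (0.51), a mitochondrial serine carrier. Of the glucocorticoid and hypoxia induced genes 3 of 9 were lower in dividing Treg-origin cells and none higher: Txnip (-1.12), Tsc22d3 (-1.04) and Bnip3l (-0.77). The same 3 genes were lower in dividing CD4 and CD8 cells, where Txnip was at -0.70 in each. In those classes the list also had 2 genes that were higher, Fkbp5 among them (0.35 in CD4 and 0.34 in CD8 cells), and Hif1a was higher in CD8 cells (0.27). The values are log2 differences past the edgeR threshold, of genes averaging 20 CPM or more.

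Across genotypes each value is a single library, so ratios below carry 95% conditional binomial intervals for counting error only, and no test was made. Ratios of at least 1.5-fold either way were counted where the gene averaged 20 CPM or more over the pair. In Treg-origin cells, which carried the deletions, 7 of the 10 genes had that level. Loss of CD226 alone, set against the wild type, moved 1 of them past 1.5-fold, with a background of 3.52% of all genes at that level. Loss of CD226 where TIGIT was already absent moved none, with 3.83%. Loss of TIGIT alone moved none, with 2.43%. Loss of TIGIT where CD226 was already absent moved 2, with 4.39%, and loss of both receptors none, with 3.18%.

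In the conventional cells, which were wild type in all 4 libraries, none of the 10 genes at 20 CPM or more passed 1.5-fold in any of the same contrasts. In CD4 cells 8 or 9 of the 10 genes had that level, and the background shares were 0.196%, 0.511%, 0.118%, 0.118% and 0.176% in the order above. In CD8 cells 9 genes had it, and the shares were 0.317%, 0.497%, 0.298%, 0.139% and 0.257%.

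The genes past 1.5-fold in Treg-origin cells were Ddit4 and Psat1. In Treg-origin cells Ddit4 was 1.64-fold as high in the CD226-knockout as in the wild-type library (interval 1.34 to 2.02; 1.43-fold in cells thinned to 2000 UMIs) and 1.47-fold as high in the TIGIT-knockout library (1.20 to 1.80). The double-knockout level was 1.07 times the wild-type level (0.861 to 1.34) and 0.654 times that of the CD226 knockout (0.530 to 0.805). In the conventional cells of the same libraries, Ddit4 was 1.40-fold (1.31 to 1.499) and 1.28-fold (1.19 to 1.38) as high in CD4 cells of the CD226- and TIGIT-knockout libraries as in the wild type. In CD8 cells the same ratios of Ddit4 were 1.43 (1.31 to 1.56) and 1.44 (1.32 to 1.57). Both single-knockout libraries thus stood above the other 2 in all 3 classes, although the conventional cells carried no deletion. Over all kept cells these libraries had the lowest median depth, 7911 and 6972 UMIs per cell against 9027 and 8055. Within each class, however, the CD226-knockout library had a higher median than the double knockout. These medians were 4783.5 and 4604.5 UMIs in Treg-origin, 8055.5 and 7785 in CD4 and 10029.5 and 10015 in CD8 cells. The part of depth in the Ddit4 order was not tested.

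**Figure D4:**
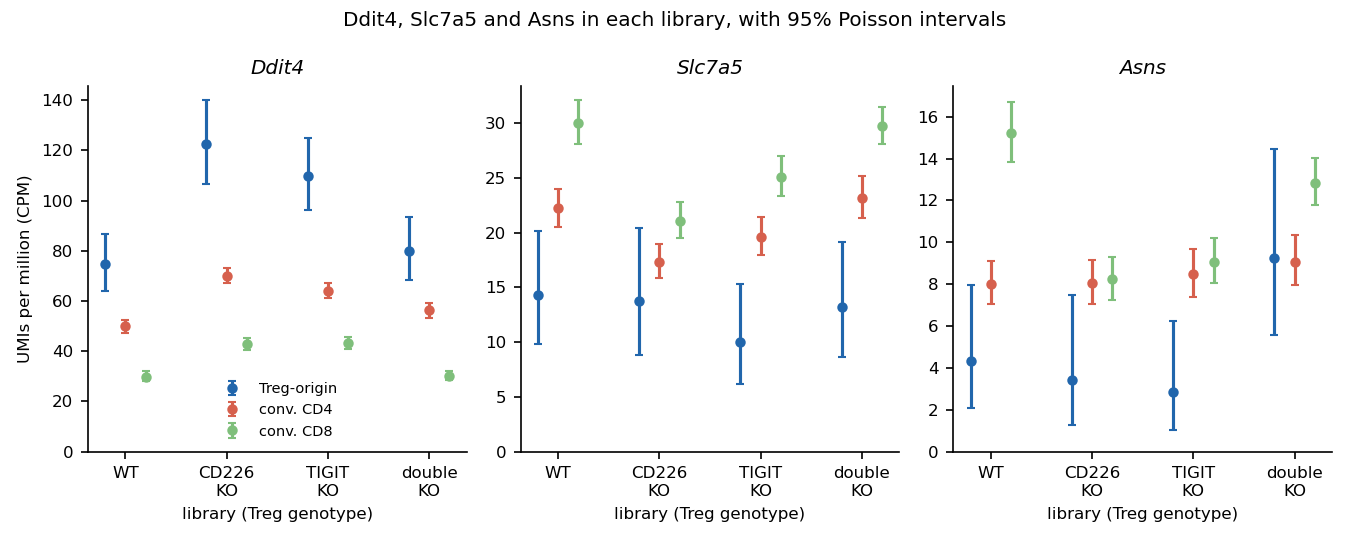
Ddit4, Slc7a5 and Asns (vertical axes, CPM, starting at 0) in each library, for Treg-origin, CD4 and CD8 cells. Bars are exact 95% Poisson intervals for counting error only. Ddit4 is highest in the CD226- and TIGIT-knockout libraries in every class, and Slc7a5 in conventional cells is lowest there.

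Slc7a5 in conventional cells was lower in both single-knockout libraries than in the other 2. In CD8 cells it was 0.701 times the wild-type level in the CD226-knockout library (0.632 to 0.777) and 0.836 times in the TIGIT-knockout library (0.758 to 0.922), while the double-knockout ratio was 0.990 (0.906 to 1.08). In CD4 cells the same ratios of Slc7a5 were 0.780, 0.884 and 1.04. In Treg-origin cells the intervals of its ratios were wide, and each held 1.

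Psat1 in Treg-origin cells was 1.76-fold as high in the double-knockout as in the CD226-knockout library (1.25 to 2.50, from 105 and 51 UMIs), and 1.36-fold in non-dividing cells alone. Against the wild type the double-knockout ratio of Psat1 was 1.18 (0.890 to 1.57). Phgdh in Treg-origin cells was 0.738 times the wild-type level in the CD226-knockout library (0.639 to 0.852) and 0.803 times in the double-knockout library (0.703 to 0.917), while the TIGIT-knockout ratio was 0.952 (0.839 to 1.08). Asns was below 20 CPM throughout. In CD8 cells Asns was 0.541 times the wild-type level in the CD226-knockout library (0.462 to 0.633) and 0.597 times in the TIGIT-knockout library (0.512 to 0.695), and in Treg-origin cells 3.24 times as high in the double- as in the TIGIT-knockout library (1.24 to 9.90, from 19 and 6 UMIs). Slc3a2, Slc1a5, Mthfd2 and Atf4 lay between 0.878 and 1.19 times in all contrasts and classes.

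Over the 24 sums, the 10 genes formed a group that rose together and others that did not. Pearson's r of log2(CPM + 1) was highest between Asns and Psat1 (0.89), Psat1 and Shmt2 (0.89) and Psat1 and Phgdh (0.87). Slc7a5 was at 0.82 with each of Psat1, Asns and Shmt2, and at 0.02 with its partner chain Slc3a2. Ddit4 was negative with Shmt2 (-0.82), Asns (-0.73), Atf4 and Slc7a5 (-0.69 each). Atf4 was at 0.74 with Slc7a5 and 0.64 with Asns, but at 0.25 with Phgdh and 0.26 with Mthfd2. The sums share libraries, depth and cell cycle, so r is a description with no test. Among 2748 other genes that averaged 50 CPM or more, the most like Slc7a5 were Rnf126 (0.90), Psmd3 and Cyc1 (0.89 each). Those most like Asns were Ddx27, Acp1 (0.92 each) and Ebna1bp2 (0.91), and those most like Ddit4 were Tespa1 (0.94), Ly6a (0.93) and Timp2 (0.91).

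**Figure D5:**
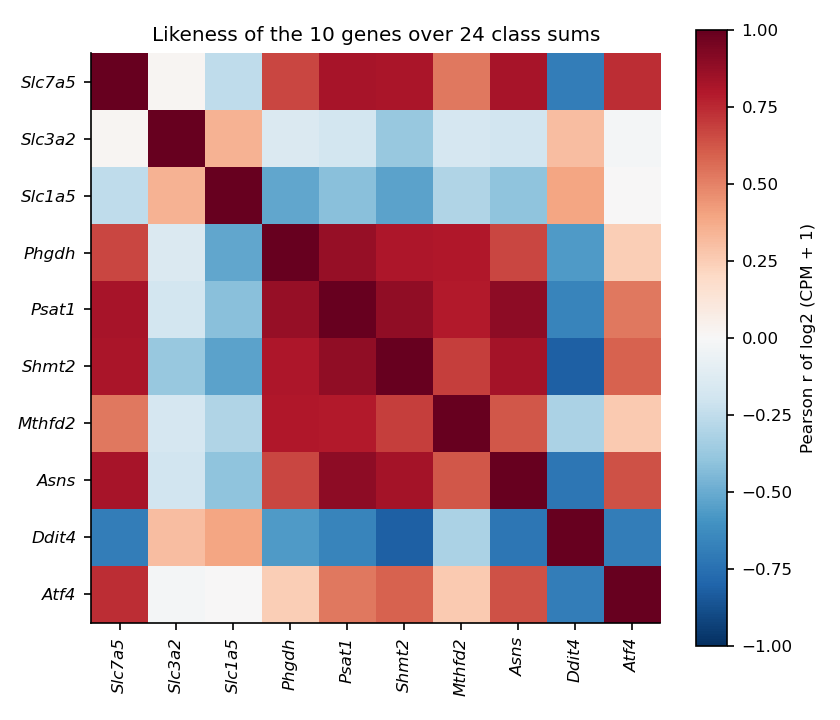
Pearson's r of log2(CPM + 1) for each pair of the 10 genes over 24 sums (3 classes, dividing or not, 4 libraries); red is positive and blue negative. The serine enzymes, Asns and Slc7a5 form a positive block, and Ddit4 is negative with most of them.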

How the data were processed

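Droplet 3′ single-cell RNA and CD45.1 and CD45.2 antibody tags were read in 4 libraries. The deposited files hold raw UMI counts per gene and cell, made by the authors with Cell Ranger 3.1.0 on mm10, per the submitters' processing notes. Cells needed 500 or more genes and no more than 10% of UMIs from mitochondria. No doublet caller was run; cells between the antibody limits were left out of the classes. Counts were summed per class, or class and division, and library, and tested with edgeR 4.0.16 (R 4.3.3): filterByExpr, TMM, quasi-likelihood, library as block, Benjamini-Hochberg over all genes, adjusted p of at most 0.05. Cd226, Tigit and Mki67 were left out of the calls. SE is the absolute log2 fold change over the square root of F. Sums, ratios and exact 95% intervals used Python 3.11.15, numpy 2.4.6, scipy 1.17.1 and pandas 2.3.3, and figures matplotlib 3.10.9. Library totals were 82630541 to 86675591 UMIs over the cells kept, and intervals cover counting error only. The alternatives were DESeq2 1.42.0 and its size factors, other filters and antibody limits, thinning, cell subsets, no library block and leaving out each library.

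The 10 genes and the lists were chosen with earlier results of these data known. From each list, the 3 highest and 3 lowest folds among called genes averaging 20 CPM or more could be named; a gene of one list is counted in it but not reported here by name. The fits were tested on simulated data, 50 genes being altered by each of several folds. For Treg-origin against CD4 cells (10775 genes) 58% were recovered at 1.5-fold and 82% at 2-fold, with 7 false of 167 calls.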

Additional observations from a re-analysis of the deposited data

Results flagged for a closer look

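Each result here is a difference, on the log2 scale, between the dividing to non-dividing changes of 2 cell classes that passed edgeR's quasi-likelihood test of that difference with Benjamini-Hochberg adjustment. Phgdh changed less with division in CD8 than in CD4 cells (-0.34 ± 0.06, adjusted p = 5.95e-05). So did, from the serine, glycine and folate list, Tyms (-0.68 ± 0.08, adjusted p = 1.00e-07), which makes thymidylate, and Mthfd1l (-0.40, adjusted p = 0.0376), a mitochondrial formate producer. Hif1a, the oxygen-regulated transcription factor, went the other way (0.23, adjusted p = 0.0304). Tyms changed more in Treg-origin than in CD4 cells (0.53, adjusted p = 0.0156), and Txnip, a glucose-responsive inhibitor of glucose uptake, fell further there (-0.40, adjusted p = 0.0107). Depth and the share of dividing cells differed between the classes as well, and their part was not tested.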

How the results depend on the processing

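Of the alternatives run for the 10 genes, 935 values kept their side of the threshold. These include values that changed direction where neither the main nor the alternative value passed. A further 79 no longer passed, 18 newly passed, and 4 reversed where either value passed. Those 4 were Phgdh in Treg-origin against CD4 cells (0.0897, dividing cells alone) and Slc1a5 with division in CD4 cells (0.0128, thinned). The others were Asns with division in CD8 cells (-0.27, thinned) and the Slc7a5 difference between CD8 and CD4 cells in its change with division (-0.65, thinned). For the genotype ratios past 1.5-fold, 43 alternatives lay within the counting interval of the main ratio, 3 moved outside it and 1 reversed. The reversed one was Asns in CD8 cells, at 1.15 for TIGIT loss with CD226 present (non-dividing cells). An alternative within the interval could still fall short of 1.5-fold. In Treg-origin cells this held for Ddit4 with CD226 loss alone when thinned. It also held for Psat1 with TIGIT loss where CD226 was absent, in non-dividing cells.

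Over all genes, the count of calls for Treg-origin against CD4 cells was 4520, and 2945 thinned, 2874 in non-dividing and 2176 in dividing cells. For CD8 against CD4 it was 5345, and 3244 by DESeq2, 3304 thinned and 3458 in non-dividing cells; for Treg-origin against CD8 5716, and 3149 in dividing cells. With division in Treg-origin cells it was 2234, and 1011 by DESeq2, 1378 with stricter antibody limits, 648 thinned and 766 at 5000 to 10000 UMIs. In CD4 cells it was 6179, and 3072 thinned and 4080 at that depth, and in CD8 cells 4385, and 1723 and 2600. Dividing by the full Mki67 count and then thinning, chosen after seeing the data, gave 969, 3990 and 2521 in the same order. For the class difference in division, Treg-origin against CD4 gave 216, and 365 with no filter, 86 thinned, 93 by that added setting, and 129 to 185 leaving out 1 library (137 without the wild type, 129 without the TIGIT knockout). CD8 against CD4 gave 982, and 571 and 461. Causes were not tested. Treg-origin values of Asns rest on 6 to 19 UMIs a library and those of Slc7a5 on 21 to 33.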

Other observations

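Cells of Treg origin in which a Foxp3 or Ikzf2 UMI was found were set beside those with neither, as values with no test. Slc7a5 had a mean of 10.2 ± 2.80 CPM (SD, n = 4) with such a UMI and 21.7 ± 11.7 CPM without. Shmt2 was at 15.6 ± 1.48 and 24.05 ± 4.51 CPM, and Atf4 at 71.4 ± 6.37 and 87.5 ± 12.0 CPM. Ddit4 was at 96.3 ± 16.3 and 99.3 ± 46.3 CPM, with libraries from 77.5 to 113 CPM with such a UMI and from 56.8 to 153 CPM without. Detection of a Foxp3 or Ikzf2 UMI also depends on depth, and its part was not tested.

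Cells between the antibody limits had a mean of 14.8 CPM of Asns (8.64 to 21.8 CPM over the libraries). That mean was above those of all 3 classes. Slc7a5 in these cells was at 20.4 CPM and Ddit4 at 54.4 CPM, near the CD4 means. Conventional cells that could not be assigned to CD4 or CD8 had means of 6.79 CPM of Asns and 17.3 CPM of Slc7a5.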
